A study of Mus musculus with 84 samples.

Results

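Chromatin immunoprecipitation and sequencing (ChIP-seq) mapped histone H3 carrying a single methyl group on lysine 4 (H3K4me1) in colon epithelium of female (XX) C57BL/6 mice after 20 weeks on a high fat diet (HFD, 60% fat) or a low fat diet (LFD, 10% fat). All 6 peak lists of this comparison were used, 3 for each diet. Peaks of the 6 lists that shared at least 1 bp were merged, which gave 82057 regions. A separate merge of all 35 H3K4me1 and H3K27ac lists of the series gave 91186, which are not the same regions, since more lists join neighbours. Each region was then described by the lists that held a peak there, by its nearest protein-coding gene and by what that gene is known to do. The mice were bought at 5 weeks of age and housed singly in a specific pathogen-free facility, with strain, sex and age at purchase the same on both diets. The epithelium was shaken loose from opened colon and holds all cell types of the crypt, along with some leukocytes, so that a lower level in a cell type and fewer cells of that type cannot be told apart. The labels number the 3 samples of a diet but do not say that each came from its own animal, and p-values therefore measure the spread between these samples.

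H3K4me1 is written mainly by the methyltransferases Kmt2c and Kmt2d and marks enhancers, as well as the flanks of promoters. Where acetylation of lysine 27 on the same histone (H3K27ac) joins it, an enhancer is usually called active, and where it stands alone the enhancer is called poised. Genes that set the identity of a tissue tend to lie in long stretches of H3K4me1, since many enhancers there adjoin each other.

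Regions with a peak in every list of one diet and in no list of the other are called HFD-only (428 regions, 0.522% of all) and LFD-only (130 regions, 0.158%), and 6 of them are shown as sequence because the diet comparison turns on them. Each sequence is the central 300 bp of the part that the 3 lists of the diet share, from the mm9 genome on the + strand, for the 3 such regions per diet whose narrowest list covered the most bp. Capitals mark matches to short words found on either strand: TGACTCA for AP-1, CAAAGGTCA or CAAAGTCCA for HNF4A, TTTATGGC or TTTATTGC for CDX2 and GGGTGTGG for KLF factors. From the HFD-only regions, the Hs6st3 stretch (chr14:119736651-119736950) lies in an intron of the gene, the 1700129C05Rik stretch (chr14:59766751-59767050) lies between genes, and the Tet2 stretch (chr3:133099951-133100250) also lies between genes. From the LFD-only regions, the Rai2 stretch (chrX:158156751-158157050) lies in an intron near the start of the gene, the Tbc1d30 stretch (chr10:120731651-120731950) includes 163 bp of exon, and the Fcho2 stretch (chr13:99603351-99603650) lies between genes.
Hs6st3 (HFD-only): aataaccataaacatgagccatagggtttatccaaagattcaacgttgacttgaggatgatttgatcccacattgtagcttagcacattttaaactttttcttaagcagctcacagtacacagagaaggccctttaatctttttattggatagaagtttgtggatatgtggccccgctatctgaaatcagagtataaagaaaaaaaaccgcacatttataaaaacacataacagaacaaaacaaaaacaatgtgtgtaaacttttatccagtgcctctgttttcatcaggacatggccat
1700129C05Rik (HFD-only): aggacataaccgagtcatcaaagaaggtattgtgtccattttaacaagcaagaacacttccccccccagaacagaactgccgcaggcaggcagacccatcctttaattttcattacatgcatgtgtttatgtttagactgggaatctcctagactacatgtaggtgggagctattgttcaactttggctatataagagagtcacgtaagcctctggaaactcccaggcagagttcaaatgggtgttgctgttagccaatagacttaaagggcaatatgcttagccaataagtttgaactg
Tet2 (HFD-only): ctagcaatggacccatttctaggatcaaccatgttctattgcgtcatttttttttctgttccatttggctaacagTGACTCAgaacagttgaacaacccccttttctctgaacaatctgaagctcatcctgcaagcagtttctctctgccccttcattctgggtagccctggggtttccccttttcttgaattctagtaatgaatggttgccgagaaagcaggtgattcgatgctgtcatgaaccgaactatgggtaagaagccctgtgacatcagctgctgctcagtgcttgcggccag
Rai2 (LFD-only): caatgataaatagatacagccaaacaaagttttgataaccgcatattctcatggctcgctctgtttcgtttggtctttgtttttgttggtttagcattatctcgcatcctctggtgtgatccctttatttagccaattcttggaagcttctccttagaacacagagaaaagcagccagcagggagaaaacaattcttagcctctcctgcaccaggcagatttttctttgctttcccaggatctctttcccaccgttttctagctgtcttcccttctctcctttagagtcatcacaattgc
Tbc1d30 (LFD-only): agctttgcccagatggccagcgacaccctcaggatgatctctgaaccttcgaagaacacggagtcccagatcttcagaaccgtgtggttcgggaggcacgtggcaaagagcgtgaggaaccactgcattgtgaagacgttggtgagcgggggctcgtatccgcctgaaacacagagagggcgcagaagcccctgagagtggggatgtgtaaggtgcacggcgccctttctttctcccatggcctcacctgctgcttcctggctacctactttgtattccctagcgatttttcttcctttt
Fcho2 (LFD-only): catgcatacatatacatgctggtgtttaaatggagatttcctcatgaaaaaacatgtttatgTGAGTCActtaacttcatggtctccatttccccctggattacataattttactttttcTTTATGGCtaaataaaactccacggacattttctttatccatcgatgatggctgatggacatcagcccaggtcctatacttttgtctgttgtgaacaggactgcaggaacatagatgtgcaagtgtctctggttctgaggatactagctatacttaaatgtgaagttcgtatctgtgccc
Only the Tet2 and Fcho2 stretches held a match. The AP-1 word stood in both, on the + strand at Tet2 and as its reverse complement TGAGTCA at Fcho2, where a CDX2 word followed. In the central 300 bp of all 82057 regions the AP-1 word was found in 6.32%, against 5.14% of the HFD-only regions (22, Clopper-Pearson 95% interval 3.25 to 7.68%) and 2.31% of the LFD-only regions (3, 0.478 to 6.60%). The CDX2 words were found in 3.27% of all regions, 2.57% of HFD-only and 3.85% of LFD-only regions. The KLF word was in 3.86%, 4.21% and 4.62% of the same sets. The HNF4A words were in 1.80% of all regions and 2.10% of HFD-only regions, and in none of the 130 LFD-only regions, a count that allows a share of up to 2.80%. Each interval for a diet-only set held the share of all regions for these 4 groups of words, and the intervals cover counting error alone.

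The lists themselves were larger on the HFD. On the HFD there were 76682, 76931 and 74756 peaks per list, and on the LFD 73244, 71853 and 73804, so that the diets did not overlap (76123 ± 1190 against 72967 ± 1005 peaks, SD, n = 3 each). A two-sided exact permutation test gave p = 0.1, below which 3 against 3 cannot go. Peaks covered 231.6, 230.4 and 226.6 Mb of the genome on the HFD and 221.2, 221.6 and 224.6 Mb on the LFD (exact p = 0.1). The median width was 2200 bp in each list, and the widest peaks reached 72400 to 76000 bp on the HFD and 71400 to 87600 bp on the LFD. Peaks that overlapped an H3K27ac peak in the list of the same diet and replicate number were 37918 ± 1066 on the HFD and 34992 ± 723 on the LFD (difference 2926, exact p = 0.1, no overlap between the diets). Peaks without H3K27ac numbered 38205 ± 187 and 37975 ± 490 (difference 230.3, exact p = 0.6). The H3K27ac lists also covered more of the merged regions on the HFD (40.9% ± 1.06 against 38.1% ± 0.585, exact p = 0.1). Depth is unknown here, since peak lists carry no reads, and its part in the larger HFD lists was not tested. The input (control) samples of XX mice name no mark in their titles, unlike the H3K4me1 and H3K27ac inputs of XY mice. Both marks may therefore share controls, and their larger HFD lists are not known to be separate observations.

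**Figure D1:**
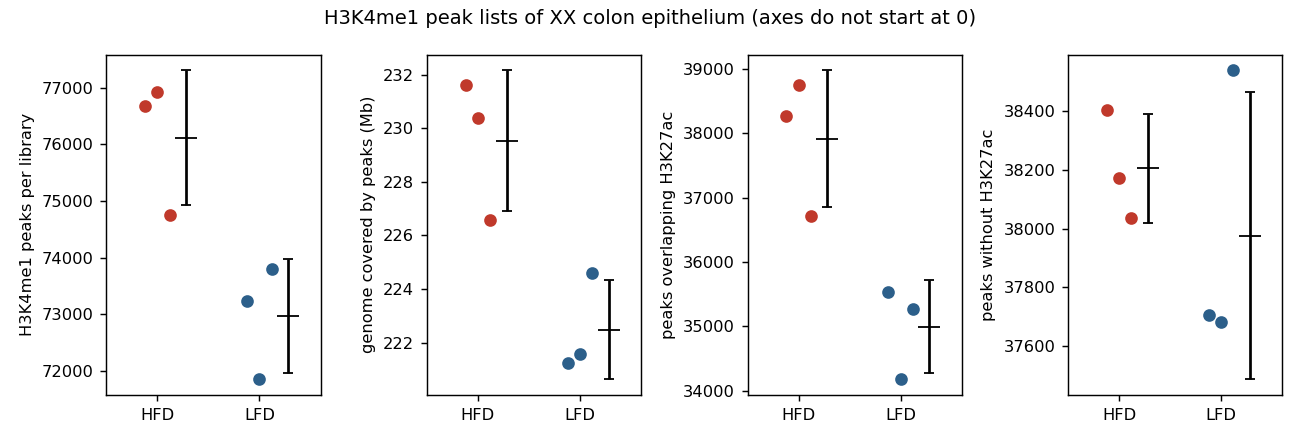
Number of H3K4me1 peaks, Mb covered by them, and peaks with and without an overlapping H3K27ac peak of the same diet and replicate number, for the 3 HFD and 3 LFD libraries (points). Black bars give the mean and SD. The HFD points lie above the LFD points in the first 3 panels and among them in the last.

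Promoters showed the same order with a smaller difference. Of 22367 protein-coding genes, 14524, 14393 and 14425 had a peak within 1000 bp of a transcription start site (TSS) on the HFD, and 14330, 14063 and 14378 on the LFD (exact p = 0.1). The difference of 190 genes fell to 93.3 without LFD replicate 2, and with peaks of at least 1000 bp the diets overlapped (difference 161, exact p = 0.2). Genes with a peak only farther away, within the gene or 10 kb of it, numbered 2815 ± 64.4 and 2891 ± 95.7 (exact p = 0.3). A promoter peak was found in all 6 lists for 13022 genes and in none for 7007. For 16 genes (0.0715%) the promoter had a peak in all HFD lists and no LFD list, and these include Slc6a14, an amino acid transporter, Tdo2, a tryptophan-degrading dioxygenase, Cma1, a mast cell chymase, and Cd37, a tetraspanin of leukocytes. The reverse held for 14 genes (0.0626%), which include Cry1, a repressor of the circadian clock, St6galnac1, a sialyltransferase that caps mucin glycans, and Gria4, a glutamate receptor subunit. These 7 genes were chosen after their values were seen.

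The epithelial label was held against marker genes by the share of each gene, with 10 kb on each side, that peaks covered. In the 6 libraries peaks covered 15.0 to 15.7% of all such windows. The 12 intestinal identity transcription factors had 54.7 to 58.7% of their windows covered, and the 12 epithelial structure genes 56.6 to 60.2%, with a promoter peak for each of these 12 in every list. Over the gene of Krt8, a keratin of simple epithelia, 88.9% of the window was covered on average, over Cdx1, a caudal homeobox factor of the gut, 86.0%, and over Hnf4a, a nuclear receptor of absorptive epithelium, 85.6%. Leukocyte markers stood at 10.9 to 12.6%, fibroblast markers at 9.40 to 10.7%, smooth muscle markers at 10.4 to 12.6%, endothelial markers at 10.1 to 11.5% and enteric neuron and glia markers at 6.38 to 7.48%. Ptprc, which encodes the pan-leukocyte antigen CD45, had no covered bp in any list, nor did Col1a2, Lum, Myocd, Emcn, Adipoq or Lep. Of the 52 markers of other cell types, 8 were at 0 in every list and 17 lay above the share of all windows, 4 of 12 for leukocytes, 2 of 8 for fibroblasts, 4 of 8 for smooth muscle, 2 of 8 for endothelium, 1 of 8 for neurons and glia and 4 of 8 for adipocytes. The highest were Cd68, a lysosomal protein of macrophages, with 55.6%, Cidec, a lipid droplet protein, with 49.6%, and Lipe, a lipase, with 40.2%. Adipocyte markers reached 18.3 to 21.3%, with Adipoq and Lep at 0. The diets did not overlap in the summed share of 3 of the 20 lists, each higher on the HFD. Total covered length was likewise higher in every HFD library (226.6 to 231.6 Mb against 221.2 to 224.6 Mb). The 3 lists were the identity factors (56.54 to 58.73% against 54.70 to 56.49%), the tight junction genes (50.2 to 51.5% against 47.3 to 48.9%) and the fibroblast markers (10.2 to 10.7% against 9.40 to 10.1%). Their part in the other results was not tested.

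**Figure D2:**
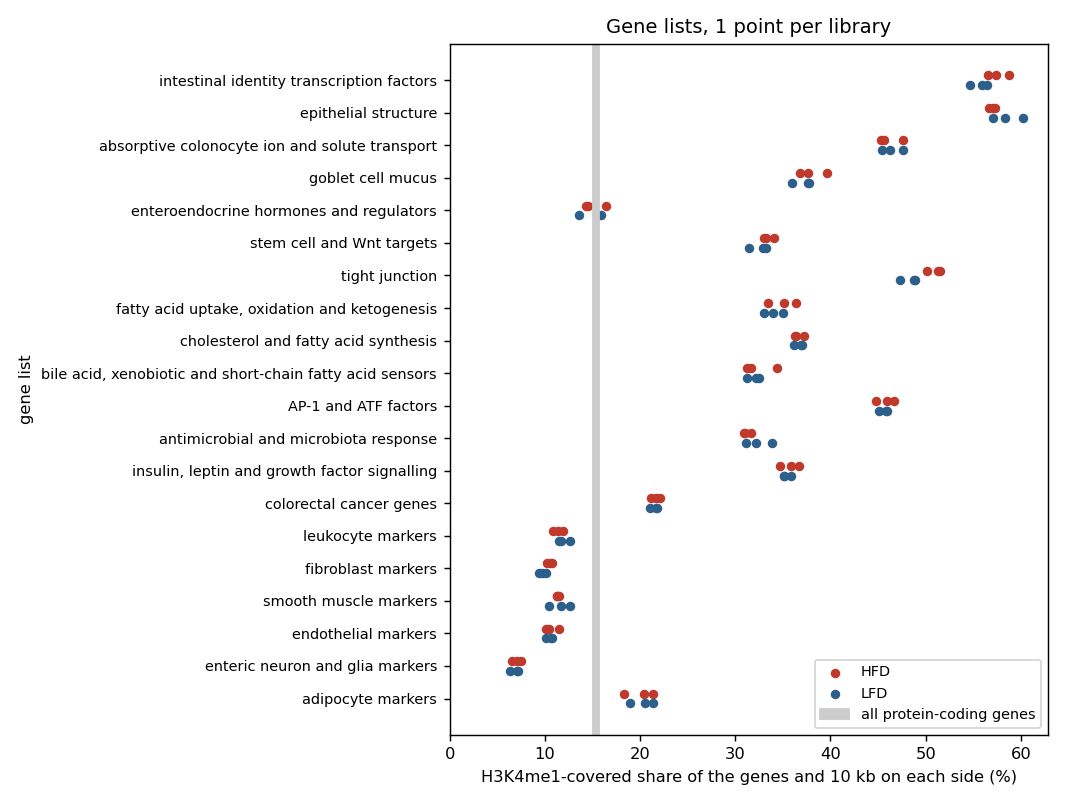
Share of the summed gene windows (gene body and 10 kb on each side) that H3K4me1 peaks covered, for 20 gene lists, with 1 point per library (HFD red, LFD blue) and the range over all protein-coding genes in grey. The 2 epithelial lists at the top lie between 54.7 and 60.2%, and 5 of the 6 lists of other cell types lie left of the grey band.

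Most regions were common to the diets. Of the 82057 merged regions, 48245 (58.8%) had a peak in all 6 lists, 10567 in a single list, 6248 in 2, 5113 in 3, 5276 in 4 and 6608 in 5. Regions in all 6 lists were wide (median 4000 bp, against 1200 bp for those in 1 list), 31.7% of them lay within 5 kb of a TSS and 73.6% overlapped an H3K27ac peak of XX mice. With each list fewer, those shares were lower, down to 13.1% near a TSS and 6.79% with H3K27ac for regions in 1 list. Peaks of the transcription factor HNF4a in male (XY) mice followed the same order, from 49.1% of regions in all 6 lists to 6.49% of regions in 1. Likeness of the lists was measured as the Jaccard index, the covered bp that 2 lists share divided by the bp that either covers. It was 0.693 to 0.708 between HFD lists, 0.680 to 0.685 between LFD lists and 0.679 to 0.703 between lists of different diets, whose range held or overlapped the other ranges.

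**Figure D3:**
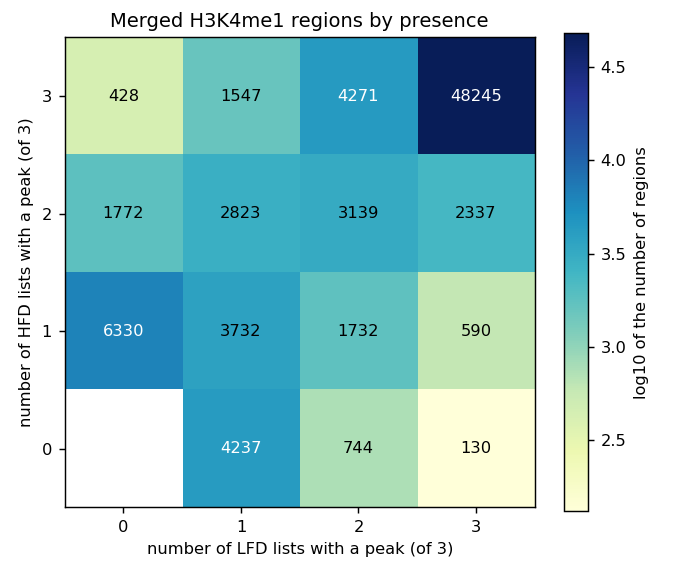
Number of merged regions by how many of the 3 HFD lists (vertical) and of the 3 LFD lists (horizontal) had a peak, coloured on a log10 scale. The 48245 regions of the upper right cell were in all lists, and the upper left and lower right cells hold the 428 HFD-only and 130 LFD-only regions.

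Among the widest regions present in all 6 lists was that of Hnf4a, the nuclear receptor. A region of 75200 bp across the gene (chr2:163351201-163426400) had 73400, 72600 and 73800 bp covered on the HFD and 73800, 75200 and 75200 bp on the LFD. Sox9, a factor of crypt base cells, was nearest to an intergenic region 334 kb from its TSS (chr11:112940201-113019400), which had 71200 to 73800 bp covered on the HFD and 71600 to 73000 bp on the LFD. The ranges of the diets overlapped at both. Lrig1, a brake on epidermal growth factor receptors and a stem cell marker, had 72000, 73800 and 72000 bp on the HFD and 73800, 73600 and 73800 bp on the LFD. Others of this group lay at Ankrd11, a chromatin regulator whose region was the widest with 90400 bp in its narrowest list, at Plekha6, Mtap7, a microtubule-binding protein, Shb, a signalling adaptor, and Aff1, of the super elongation complex, and in the interval nearest to AB041803. All 10 had H3K27ac in each XX list, H3K4me1 in each XY list and HNF4a in all 4 XY lists.

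A width difference between the diets was uncommon at such shared regions. Of the 48245 regions in all 6 lists, every HFD list covered more bp than every LFD list at 1940 (4.02%) and fewer at 1408 (2.92%).

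Regions seen on 1 diet alone were a small part of the whole, 428 on the HFD and 130 on the LFD. The cells next to them in the presence grid held 1772 regions with 2 HFD lists and no LFD list, 1547 with 3 HFD lists and 1 LFD list, 744 with 2 LFD lists and no HFD list, and 590 with 3 LFD lists and 1 HFD list. Leaving out any of the 6 lists, which asks for fewer lists, gave 932 to 1068 HFD-only and 259 to 430 LFD-only regions. The HFD-only count was the higher in each case, as were the peak totals of the HFD lists. In XY mice the same rule gave 136 HFD-only (0.159%) and 333 LFD-only (0.39%) regions of 85281, the opposite order, and 1 of the XY HFD libraries held fewer peaks than the other 5.

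The 428 HFD-only regions resembled the 5113 regions in exactly 3 lists of any diet, of which they are a part. Their median width was 1800 bp in both sets, the median distance to a TSS was 24.9 kb against 26.3 kb, and the share with an H3K27ac peak in any XX list was 15.9% (68 regions, 95% interval 12.6 to 19.7%) against 15.9%. HNF4a of XY mice was found at 12.9% (9.83 to 16.4%) against 11.8%. By place, 51 HFD-only regions reached within 1000 bp of a TSS, 59 touched another exon, 144 lay in introns and 174 between genes. Among the 130 LFD-only regions these counts were 16, 19, 46 and 49, with a median distance to a TSS of 21.3 kb, H3K27ac at 19.2% (25 regions, 12.8 to 27.1%) and HNF4a at 12.3% (7.20 to 19.2%). Another merged region lay within 2 kb of 36.9% of HFD-only, 35.4% of LFD-only and 43.1% of all regions.

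Each of the 10 HFD-only regions with the widest shared support had 2200 bp or more in its narrowest list. The first, in an intron of Hs6st3 (chr14:119735401-119740000), a heparan sulfate 6-O-sulfotransferase, had 2800, 4600 and 3400 bp covered in the HFD lists and no bp in the LFD lists. It carried no H3K27ac in XX mice, and in XY mice it had H3K4me1 in 2 of 3 HFD and 2 of 3 LFD lists. The region nearest to Tet2, a dioxygenase that oxidizes 5-methylcytosine, had 3200, 2800 and 2600 bp, again with H3K4me1 in 2 of 3 XY lists of either diet, and an H3K27ac peak in 1 HFD list. At Thoc2, a subunit of the mRNA export complex THO on the X chromosome, 3800, 2400 and 3000 bp were covered over an exon. XY mice had the mark there in 2 HFD and 2 LFD lists.

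Other members of this group had different patterns in the lists that did not choose them. Bckdhb encodes a subunit of the branched-chain ketoacid dehydrogenase, and its region (2600, 3000 and 3000 bp) had H3K27ac in all 6 XX lists and H3K4me1 in all 6 XY lists. The interval nearest to Nod1, a sensor of bacterial peptidoglycan, had 2800, 2600 and 2200 bp and no H3K27ac. In XY mice that interval had H3K4me1 in no HFD list and in 2 LFD lists. Nkx2-3, a homeobox factor of gut development, was nearest to a region with 2400, 2200 and 2200 bp, which also had no HFD list and 2 LFD lists in XY mice. The region in an intron of Zfp618, a zinc finger gene, had 2200, 2600 and 2600 bp and was the only one of the 10 with H3K4me1 in all 3 HFD lists and no LFD list of XY mice. The remaining regions were nearest to 1700129C05Rik, Gm11016 and A930011G23Rik.

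The 10 named LFD-only regions had 1600 to 2600 bp in their narrowest list. Over the whole sets the median of this width was 1000 bp for LFD-only and 800 bp for HFD-only regions. Rai2, a retinoic acid-induced gene on the X chromosome, had 2600, 2800 and 3200 bp covered at its promoter in the LFD lists and none in the HFD lists. H3K27ac was present there in 2 HFD and 2 LFD lists of XX mice. The exon region of Tbc1d30, a GTPase-activating protein for Rab proteins, had 3000, 3600 and 2400 bp and had neither H3K27ac in XX mice nor H3K4me1 in XY mice. The intergenic region nearest to Fcho2, which bends membranes at clathrin-coated pits, had 2000, 2000 and 2600 bp, and XY mice carried H3K4me1 there in 2 LFD lists and no HFD list. Introns of Cdk19, a kinase of the Mediator complex, of Camk1d, a calmodulin-dependent kinase, and of Ehbp1, an endocytic adaptor, held others. The rest lay at Acn9, Gramd1b, a sterol transfer protein, Cttnbp2, a cortactin-binding protein, and Ppp4r1, a regulatory subunit of protein phosphatase 4.

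**Figure D4:**
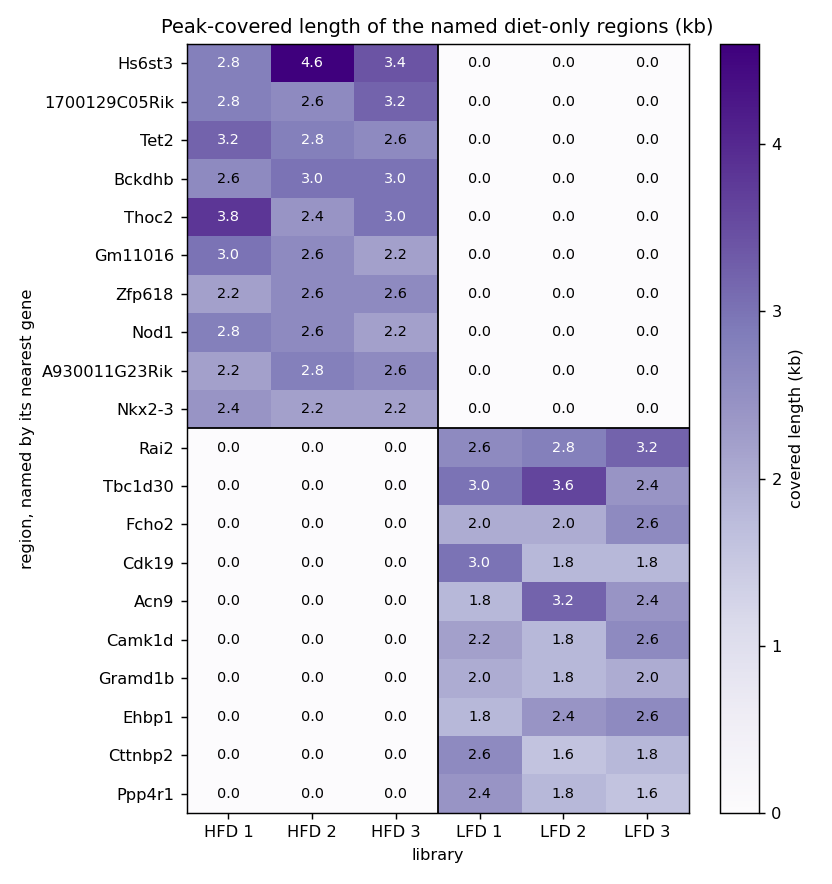
Bp covered by H3K4me1 peaks, in kb, in each of the 6 libraries for the 10 HFD-only regions (above the line) and 10 LFD-only regions (below) with the widest shared support. Rows carry the name of the nearest gene, and the 0.0 blocks are fixed by how the regions were chosen.

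The nearest genes were nearly as many as the regions. The 428 HFD-only regions had 416 nearest genes, 12 of them with 2 regions and none with 3, and the 130 LFD-only regions had 128, with 2 regions each for Camk1d and Fcho2. The sets shared 7 genes, 1.68% of the HFD-only and 5.47% of the LFD-only genes, among them Sox6, a transcription factor, and Tbc1d1, a Rab GTPase-activating protein of glucose uptake. Among genes with 2 HFD-only regions was Myc, the Wnt-induced growth regulator, whose regions lay 474 kb and 815 kb from its TSS (chr15:61341601-61343600 and chr15:62633601-62634800). The nearer had 1600, 1600 and 2000 bp in the HFD lists and the farther 800 bp in each. Ptch1, the hedgehog receptor, had an intronic region with 1600, 2400 and 1600 bp and another with 1200, 1000 and 1600 bp. At Esrp2, a splicing factor of epithelial cells, the intronic pair had 1200, 2400 and 1200 bp and 1400, 2200 and 1600 bp. None of these 6 regions had H3K27ac in any XX list, and all had H3K4me1 in at least 1 XY list.

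The 14 lists on epithelium, metabolism, signalling, immunity and cancer hold 182 genes. Of these, 4 (2.20%) were nearest to an HFD-only region, against 1.86% of all 22367 genes, and 1 (0.549%) to an LFD-only region, against 0.572%. The 4 were Myc and Smoc2 of the stem cell and Wnt list, Cyp3a13, a steroid and drug hydroxylase, and Acvr2a, an activin receptor, and the 1 was Slc20a1, a phosphate transporter. The Cyp3a13 region, in an intron, had 1000, 2800 and 1800 bp on the HFD. The Acvr2a region had 600, 1800 and 2000 bp and lay 344 kb from the TSS. The Slc20a1 region had 1600, 1000 and 1600 bp on the LFD. Of the lists of other cell types, Myh11 was nearest to an HFD-only and Synpo2 to an LFD-only region, both smooth muscle markers.

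Lists that had no part in choosing these regions were then compared between the diets. If presence on one diet alone reached beyond the 6 lists, H3K27ac of XX mice, or H3K4me1 of other animals, might be more frequent at HFD-only regions in HFD samples. H3K27ac need not follow, since H3K4me1 can stand alone. It was in no XX list at 360 of the 428 HFD-only and 105 of the 130 LFD-only regions. A lack of difference in H3K27ac therefore cannot decide whether H3K4me1 differed. In the H3K27ac lists of XX mice, 9.58, 10.7 and 10.3% of the HFD-only regions had a peak on the HFD and 10.05, 9.58 and 9.35% on the LFD (exact p = 0.3). At LFD-only regions the values were 11.5, 11.5 and 8.46% on the HFD and 10.8, 13.1 and 9.23% on the LFD (exact p = 0.9). The diets overlapped in both sets. With HFD-only regions defined by presence at 50% of the region, the difference grew from 0.545 to 1.7 percentage points and the diets did not overlap (exact p = 0.1). Over all merged regions the difference was 2.79 points (40.9% against 38.1%, exact p = 0.1). Relative to each library's share over all merged regions, HFD-only regions as first defined had 25.0% on the HFD and 25.4% on the LFD (exact p = 0.7). LFD-only regions had 25.7% and 29.0% (exact p = 0.4). By region, 21 of the 428 HFD-only regions had more HFD than LFD lists with H3K27ac, 13 had fewer and 394 had as many, 360 of these with none. These shares of 4.91 and 3.04% compare with 10.6 and 4.52% over all merged regions.

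Nearly all of these regions carried H3K4me1 in XY mice as well, as did nearly all merged regions (94.1%) and regions in exactly 3 lists (95.9%). A peak in any of the 6 XY lists was found at 415 of the 428 HFD-only regions (97.0%, 94.9 to 98.4%) and at 123 of the 130 LFD-only regions (94.6%, 89.2 to 97.8%). In XY mice the library of HFD replicate 2 stood apart, with 71944 peaks against 76013 to 79511 in the other 5. At HFD-only regions the XY HFD lists had a peak at 65.2, 43.5 and 67.3% and the XY LFD lists at 58.2, 68.2 and 65.0% (difference of HFD minus LFD -5.14 percentage points, exact p = 0.7). Without HFD replicate 2 the difference was 2.45 points (exact p = 0.8). At LFD-only regions the values were 59.2, 34.6 and 63.8% and 58.5, 66.9 and 59.2% (-8.97 points, exact p = 0.6, and 0 points without HFD replicate 2). By region, 106 HFD-only regions (24.8%) had more HFD than LFD lists of XY mice, 151 (35.3%) had fewer and 171 had as many. Over all merged regions the shares were 10.3% with more HFD and 14.4% with more LFD lists. There, 50936 of the 82057 regions were in all 6 XY lists, against 64 of the 428 HFD-only regions. Of the 428, 5 were HFD-only and 5 LFD-only in XY mice, against 117 and 275 of all 82057 merged regions.

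The last set of lists came from other animals on a shorter diet. H3K27ac had been mapped in male recipients, which were born germ free, received stool from HFD- or LFD-fed donors, and ate either diet for 5 weeks. At HFD-only regions the 5 HFD-fed recipients had a peak at 12.6 to 14.7% (13.7% ± 0.943) and the 6 LFD-fed recipients at 10.5 to 13.3% (11.8% ± 0.988, two-sided exact permutation test p = 0.0195, Benjamini-Hochberg adjusted over the 6 tests of this kind 0.117). The ranges overlapped, and the adjusted value did not pass 0.05. Each diet group pooled recipients of both kinds of donor, and the test did not take the donor into account. Over all merged regions HFD-fed recipients also had the higher share, 43.3% ± 2.45 against 38.8% ± 2.16 (exact p = 0.0173). Expressed relative to each recipient's share over all merged regions, the values were 31.6% and 30.4% (exact p = 0.104). At LFD-only regions the recipients had 12.8% ± 1.85 and 11.03% ± 2.37 (exact p = 0.234).

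**Figure D5:**
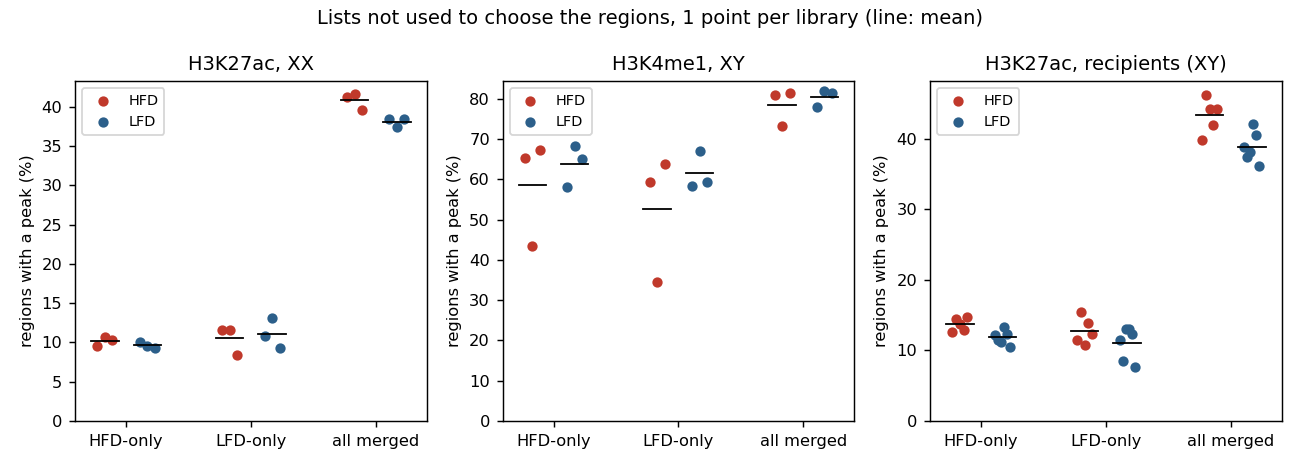
Percent of the 428 HFD-only, 130 LFD-only and all 82057 merged regions with a peak in lists that did not choose the regions, for H3K27ac of XX mice, H3K4me1 of XY mice and H3K27ac of recipients by the diet they ate. Each point is 1 library and lines are means. HFD and LFD points overlap at HFD-only and LFD-only regions in all 3 panels, and the low HFD point in the middle panel is XY replicate 2.

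Covered length was next compared gene by gene, over the gene body and 10 kb on each side, as log2 of covered bp plus 1000 bp. Of 17100 genes tested with limma, none passed an adjusted p of 0.05 in either direction (0% and 0%, smallest adjusted p 0.875). At an unadjusted p under 0.05 there were 731 genes with more and 211 with less covered length on the HFD, of the 17100 tested. A share of 0.05 of genes is expected to pass this cutoff without any difference between the diets. When covered bp were divided by the total of each library, the numbers were 418 and 378. Every HFD library lay above every LFD library at 1072 genes (6.27%) and below at 476 (2.78%). With covered bp divided by the total of each library these counts became 724 and 1001, so that the direction held by most such genes turned with the scaling. The median log2 difference over all genes tested was 0.03 and became -0.01 with that scaling.

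The 10 largest differences among genes with more covered length on the HFD and no overlap were in genes with little of the mark. Il2rg on the X chromosome, the shared subunit of cytokine receptors on lymphocytes, had 5.2, 1.4 and 4.6 kb on the HFD and 0.8, 0 and 0 kb on the LFD, a log2 difference of 1.84 ± 0.43 (SE, limma adjusted p = 0.875). The gene model Gm20489 spans it and holds the same peaks, so that they count as 1 locus. Unc5c, a netrin receptor, had 5.0, 2.4 and 3.2 kb against 0, 1.0 and 0 kb in a window of 389 kb. For Dcx, a microtubule-binding protein of young neurons, the values were 3.0, 4.0 and 2.2 kb and 1.8, 0 and 0 kb. Cma2, a chymase gene, had 1.2, 2.6 and 1.4 kb on the HFD and none on the LFD, and Fam115c likewise 1.0, 2.2 and 2.4 kb and none. S100z, a calcium-binding protein, Atp8b4, a lipid flippase, Zfp72 and 6330512M04Rik made up the rest. Some of these windows held HFD-only regions that are nearest to another gene. The Cma2 window held the region at the Cma1 promoter (1200, 1800 and 1400 bp in the HFD lists). The region at the Lrrc14b promoter (1200, 1600 and 1800 bp) lay in the Zfp72 window, and that at the Med12 promoter (800, 800 and 1600 bp) in the Il2rg window. Such values cannot be credited to the named gene alone.

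Genes with less covered length on the HFD were of the same kind. Ces1a, a carboxylesterase, had 0 kb in each HFD list and 1.2, 1.8 and 2.6 kb on the LFD. Rai2 had 3.2, 0 and 2.8 kb against 7.6, 6.8 and 4.2 kb (log2 difference -1.48 ± 0.49, SE, limma adjusted p = 0.882), and it is the gene of the LFD-only promoter region above. H2-Ob, a chain of the MHC class II chaperone DO, had 1.05, 1.05 and 0.65 kb on the HFD and 4.05, 3.05 and 3.85 kb on the LFD. Gria4 had no covered bp on the HFD and 1.0, 1.0 and 2.4 kb on the LFD, and its promoter had a peak in the 3 LFD lists alone. Myod1, the myogenic factor, had none against 1.6, 1.0 and 1.2 kb. Ecm1, an extracellular matrix protein, Mettl4, a methyltransferase, Olfr703, an olfactory receptor, 2810004N23Rik and Gm10260 were the others. None of these 20 genes passed the test (limma adjusted p from 0.875 to 0.893).

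Members of the gene lists were then read against the 6.27% and 2.78% of all genes, as a description, and none passed the test. Of the 12 intestinal identity factors, Cdx2 (23.2, 23.4 and 24.0 kb on the HFD against 20.2, 20.8 and 22.2 kb) and Klf4 (11.7, 12.3 and 12.7 kb against 11.1, 10.7 and 11.3 kb) had every HFD library above every LFD library. Cdx2 is a homeobox factor that sets intestinal identity and Klf4 a zinc finger factor of differentiated cells, and their log2 differences were 0.15 ± 0.07 and 0.14 ± 0.09 (SE). The median over this list was 0.01. Of the epithelial structure genes, Krt20, a keratin of surface cells, had 13.9, 12.3 and 13.1 kb on the HFD and more, 14.5, 16.3 and 16.7 kb, on the LFD. Spink4, a goblet cell peptide, was the only such gene of the mucus list, with 9.92, 12.1 and 8.92 kb against 7.8, 6.72 and 8.6 kb.

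The tight junction list had 3 of 12 members with all HFD libraries above and 1 below. Cldn12, a claudin, had 5.69, 4.49 and 5.69 kb on the HFD and 1.49, 3.2 and 2.89 kb on the LFD. Its log2 difference was 0.86 ± 0.23 (SE, limma unadjusted p = 0.00456, limma adjusted p = 0.875). Tjp1, a scaffold of the junction, differed by 0.06 and Cldn3 by -0.09. Over the 12 the median log2 difference was 0.08, against 0.03 over all genes.

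In the lists of lipid metabolism the differences were small as well. Pdk4, a kinase that restrains pyruvate oxidation when fatty acids are burned, had 4.91, 4.31 and 4.11 kb on the HFD and 2.71, 3.91 and 3.0 kb on the LFD (log2 0.38 ± 0.19). It was the only one of 15 fatty acid genes tested without overlap. Over the 13 genes tested of the cholesterol and fatty acid synthesis list the median log2 difference was -0.02.

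The other lists held few such genes. Batf (6.8, 7.2 and 6.4 kb on the HFD against 3.8, 3.2 and 5.8 kb), an AP-1 factor of lymphoid cells, and Junb were above on the HFD in the AP-1 and ATF list. The Junb difference was 0.02 and turned to -0.02 when scaled by library totals. Pigr, which carries antibodies into the lumen, differed by 0.06, and Tlr5, the flagellin receptor, by -0.18 (9.4, 11.2 and 10.6 kb against 11.4, 11.6 and 12.8 kb). Among colorectal cancer genes only Acvr2a lay apart, with less on the HFD (34.4, 33.8 and 33.6 kb against 40, 37.6 and 35 kb), although an HFD-only region was nearest to it. None of the members of the absorptive transport, enteroendocrine, stem cell and Wnt, sensor, and growth factor lists lay apart. Among the 6 lists of other cell types, Cfd, an adipocyte protease, lay lower on the HFD (3.4, 3.2 and 3.4 kb against 4.4, 3.8 and 4.4 kb), and no other member did in either direction.

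X-linked peaks were counted as female cells carry 2 X chromosomes, of which 1 is silenced. They made up 2.10, 2.02 and 1.90% of the HFD lists and 1.91, 1.84 and 1.93% of the LFD lists of XX mice (exact p = 0.3). Over both diets the share was 1.95% ± 0.0932 in 6 XX lists and 1.94% ± 0.168 in 6 XY lists (two-sided exact permutation test p = 0.944). Within the diets the mean differences between the sexes had opposite signs. On the LFD the XX lists (1.84 to 1.93%) lay below the XY lists (1.96 to 2.08%) without overlap (-0.138 percentage points, exact p = 0.1). By share of covered bp the sexes overlapped on the LFD (-0.0628 percentage points, exact p = 0.3). On the HFD the XX lists had a higher share of peaks by 0.153 points with overlap (exact p = 0.4). Of the XY HFD lists only replicate 2 (1.62%) lay below the XX HFD range, and replicates 1 and 3 lay within it. Leaving out the XY HFD replicate 2, whose share was the lowest, turned the difference over both diets from 0.00744 to -0.0575 percentage points (exact p = 0.255). Of the HFD-only regions 16 (3.74%) and of the LFD-only regions 5 (3.85%) lay on the X chromosome, against 3.38% of all regions in exactly 3 lists and 1.59% of those in all 6.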

How the data were processed

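ChIP-seq of H3K4me1 had been done on colon epithelium of female C57BL/6 mice, 3 samples on the HFD and 3 on the LFD, grouped by the titles given to the samples. The authors aligned reads to mm9, kept uniquely aligned reads without duplicates and deposited peaks called with SICER, 1 list per sample. The submitters' processing notes name Bowtie 0.12.8 and Picard 1.110. The deposited lists hold peak positions alone, with no reads, heights or scores, so the depth of each library is unknown and no count model could be used. Peak number and covered length rise with depth, and a peak near the threshold can appear in one list and be missing from another.

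Here peaks were merged where they shared at least 1 bp, and a list counted as present where any bp of the region was covered. Genes, exons and TSS were those of GENCODE vM1 on mm9, and the nearest gene was the protein-coding gene with the TSS closest to the centre of the region. Lists were compared with two-sided exact permutation tests over samples, and covered bp per gene (log2 of bp plus 1000, genes with at least 1000 bp in at least 3 libraries) with limma 3.58.1 in R 4.3.3 under Benjamini-Hochberg adjustment. Scripts ran on Python 3.11.15 and were tested on simulated data. Shares have Clopper-Pearson intervals at 95%.

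The members and gene lists were chosen with earlier results of these data known. Named regions were the 10 per diet, and the 10 in all lists, whose narrowest library covered the most bp, leaving out chromosome 18. Named genes were the 10 largest log2 differences per direction among genes whose diets did not overlap, since none passed the test, and up to 4 such members of each list. Alternatives were a minimum width of 1000 bp, presence at 50% of a region, merging up to 400 bp apart, a TSS distance of 2500 bp, a pseudocount of 200 bp, no filter, scaling by library total, the gene body alone, a replicate block and leaving out each library. The gene expression table of the series was not used here. A few genes and regions that met these rules are not reported here.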

Additional observations from a re-analysis of the deposited data

Results flagged for a closer look

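The share of H3K4me1 peaks on the X chromosome in the XY library of HFD replicate 2 was 1.62%, lower than in the other 5 XY libraries (1.93 to 2.08%) by a gap that a test for single outlying values calls at its 95% level, which chance alone does in about 1 of 20 groups. The same library had the fewest peaks of the 6 XY lists (71944) and the smallest covered length (218.6 Mb, against 233.5 to 240.3 Mb), and the lowest share of HFD-only and LFD-only regions with a peak (43.5 and 34.6%). What sets it apart was not tested. Between the sexes, the difference of HFD minus LFD was 3156 peaks in XX mice and -1465 peaks in XY mice, a difference of 4621 peaks (exact permutation of the diets within each sex, p = 0.105), and in covered length 7.06 and -4.54 Mb (p = 0.13), so that neither passed 0.05.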

How the results depend on the processing

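Values are differences of HFD minus LFD, or counts. Asking for presence at 50% of a region raised the LFD-only count from 130 to 288. Leaving out 1 library at a time gave 932 to 1068 HFD-only and 259 to 430 LFD-only regions, and 2976 to 3197 genes whose diets did not overlap, of which 1982 to 2207 were higher and 948 to 1141 lower on the HFD, because fewer lists had to be apart. Scaling divides each library by its total covered length, which was larger in every HFD library, and it raised the genes lower on the HFD from 476 to 1001. H3K27ac at LFD-only regions turned from -0.513 to 1.16 percentage points with presence at 50% of the region and ran from -1.41 to 0.513 with 1 library left out. H3K27ac at HFD-only regions went from 0.545 to 1.7 points with presence at 50% (exact p = 0.1, no overlap), to 0.97 with regions from peaks of at least 1000 bp, and to 0.273 and 0.857 without HFD replicates 2 and 1. In recipients it went from 1.85 to 3.1 points with presence at 50% and to 2.87 with the width minimum, and at LFD-only regions from 1.74 to 2.97 with presence at 50%. The promoter difference fell from 190 to 93.3 genes without LFD replicate 2. H3K4me1 of XY mice at LFD-only regions went from -8.97 to -3.7 points with presence at 50%, to -14.6 without HFD replicate 3 and to 0 without HFD replicate 2. H3K4me1 of XY mice at HFD-only regions ran from -9.46 to 2.45 points, the reversal without HFD replicate 2. The XX minus XY difference in the X share ran from -0.0575 to 0.0354 points, reversed at -0.0222 without XX HFD replicate 1 and -0.00626 without XX HFD replicate 2, as without XY HFD replicate 2. Junb reversed to -0.0218 when scaled and to -7.87e-05 with peaks of at least 1000 bp. Of the alternatives for the comparisons, 135 were labelled unchanged, 32 moved and 7 reversed, and 1 had a difference of 0. For single genes 388 were unchanged and 2 reversed, with no gene passing limma in any. Counts have no test and were labelled by how far they changed. With at most 3 samples per diet the exact p cannot go below 0.1. The side of the threshold was therefore fixed in advance for those tests, and keeping it says nothing about how stable they are. Deviations of samples of the same number had small correlations (r = 0.0838, 0.101 and 0.00168 for the 3 pairs). Pairs of unlike number had r from -0.126 to 0.0502, below the first 2 of these values. Pairing is therefore not settled, and the numbers were not read as pairs because the labels do not call them so. With a replicate block the differences of 3156 peaks and 7.06 Mb had an exact p of 0.25, the smallest that block can give, and 0 genes passed limma. Peak lists have no depth, so differences set by depth could not be measured.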

Other observations

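Regions that were confined to 1 diet in both sexes were few in number, and their shares are read beside those over all regions. Over the 85476 regions merged from all 12 H3K4me1 lists, 386 were HFD-only in XX mice and 129 in XY mice, and 4 were HFD-only in both, 1.04% of the first set and 3.10% of the second. For the LFD the counts were 122, 307 and 1. At 5 regions the mark was HFD-only in XX mice and LFD-only in XY mice, and at 0 regions the reverse held. Among all 85281 regions merged from the XY lists alone, 0.159% were HFD-only and 0.39% LFD-only. The 1.04% of the XX HFD-only set was thus above the share over all regions, from a count of 4. No cause is offered for these counts.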
